A study of Mus musculus with 8 samples.

Results

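Bile acid synthesis and export in the mouse liver was followed through 10 genes: Cyp7a1, Cyp8b1, Cyp7b1, Cyp27a1, Cyp39a1, Nr0b2, Nr1h4, Abcb11, Slc10a1 and Baat. They were taken by the gene name that the array annotation gives each probe, and are 10 of the 17050 genes tested. Each gene was read on its brightest probe, the one with the highest mean over all arrays, and 3 of the 10 had another probe as a check, which makes 13 probes. All 13 probes were well above background on all 8 arrays, so no member was lost to the filter on dim probes. The data are 8 one-colour Agilent arrays of liver RNA with 2 arrays in each of 4 groups, which are KKAy and C57BL/6J aged 11 weeks and KKAy and C57BL/6J aged 4 weeks. KKAy mice have the yellow agouti allele on the KK background, become obese and diabetic, and are labelled diabetes. C57BL/6J is a standard inbred strain of another background that lacks this allele, labelled normal. Every animal was kept on chow and went without food overnight, for 13.5 hours, before the liver was taken, and their sex was not given. The strains differ in their whole background, so the agouti allele, the diabetic state and other strain variants cannot be told apart.

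Bile acids are made from cholesterol in hepatocytes. In the classic route, CYP7A1 adds the first hydroxyl group to the sterol ring and limits the rate, and CYP8B1 directs the product towards cholic acid. In the alternative routes, the side chain is oxidised first, by CYP27A1 in mitochondria or by other sterol hydroxylases, and the oxysterols are then hydroxylated on the ring by CYP7B1 or, for the oxysterol that CYP46A1 makes, by CYP39A1. BAAT joins the finished acid to taurine or glycine, the export pump BSEP (Abcb11) moves it into bile, and the carrier NTCP (Slc10a1) takes it back up from blood. Bile acids bind the nuclear receptor FXR (Nr1h4), which induces the repressor SHP (Nr0b2), and SHP in turn lowers transcription of Cyp7a1 and Cyp8b1 by acting on LRH-1 (Nr5a2) and HNF4A.

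Promoters of 6 of the 10 genes were in the RefSeq table for GRCm38.p6, as 7 windows, and the 250 bases before the start were searched on both strands for motifs of this loop. Cyp7a1, Cyp7b1, Cyp39a1 and Baat had no window there and were not searched. Only the 3 windows that held a match are shown, so they were picked by the match. They belong to an enzyme, a repressor and an export pump of the same feedback loop, whose values follow. The windows of Cyp27a1, Nr1h4 and Slc10a1 held no match. The motifs were an inverted repeat of the kind FXR binds with RXR (AGGNCA, any 1 base, then TGACCT), and TCAAGG and CAAGGNCA, which resemble the single site of LRH-1 and can overlap each other. Capitals mark the matches.
Cyp8b1, chr9:121916306-121916555, minus strand: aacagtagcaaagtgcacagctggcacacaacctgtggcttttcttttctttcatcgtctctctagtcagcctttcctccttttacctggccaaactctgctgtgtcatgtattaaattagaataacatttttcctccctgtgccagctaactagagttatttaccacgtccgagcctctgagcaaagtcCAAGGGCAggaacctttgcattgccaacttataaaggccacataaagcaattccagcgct
Nr0b2, chr4:133553126-133553375, plus strand: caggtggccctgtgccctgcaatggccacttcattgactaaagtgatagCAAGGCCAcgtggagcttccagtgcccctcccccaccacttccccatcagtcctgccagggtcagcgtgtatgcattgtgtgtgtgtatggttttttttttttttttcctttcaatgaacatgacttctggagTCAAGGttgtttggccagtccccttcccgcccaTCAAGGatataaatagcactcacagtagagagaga
Abcb11, chr2:69342617-69342866, minus strand: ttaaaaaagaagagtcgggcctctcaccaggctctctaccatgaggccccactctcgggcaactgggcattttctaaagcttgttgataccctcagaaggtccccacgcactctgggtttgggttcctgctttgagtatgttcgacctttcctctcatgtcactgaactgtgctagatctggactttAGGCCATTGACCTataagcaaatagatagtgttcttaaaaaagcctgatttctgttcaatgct
The inverted repeat was present in 11 of 32851 windows of this length in the table (0.0335%), TCAAGG in 12.5% and CAAGGNCA in 5.53%. These matches describe letters in a window and do not show binding.

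Array quality and layout are described here. Each array held 43379 spots for 41174 probes, the 75th percentile of processed signal was 476.1 to 1192 fluorescence units, and the share of spots well above background was 56.3% to 66.7%. Levels below are log2 signal relative to the 75th percentile of the same array, so a level of 0 equals that percentile, and levels are compared within a probe only. Changes are log2 differences of group means from limma with their standard error (SE), from 2 arrays per group, and were called at a Benjamini-Hochberg adjusted p under 0.05 over all genes. Nothing in the labels says that the 2 arrays of a group came from different mice, so a p-value reflects the spread of these arrays only, and that spread may be technical. Over genes, the differences of replicate 1 and 2 correlated at 0.53 to 0.676 between the groups. A fit with the replicate number as a block called more of the 10 genes in every comparison. Its calls are given near the end, and those below are from the main fit, without the block. Slide 2 held both strains at 11 weeks and slide 1 both strains at 4 weeks, which leaves the effects of age and of slide inseparable (they cannot be told apart), and on both slides C57BL/6J lay at positions 1 and 2 and KKAy at 3 and 4. Of 7 hepatocyte markers 6 were measured, and their summed signal was 1599 to 1878 times the 75th percentile in KKAy and 2005 to 2022 in C57BL/6J of 11 weeks, and 1463 to 1773 in KKAy and 1385 to 1876 in C57BL/6J of 4 weeks. At 11 weeks 3 of these 6 markers were lower in KKAy and 1 was higher, where 11.5% of all genes were lower and 9.95% higher. All 7 Kupffer cell and macrophage markers were measured, with sums of 27.2 to 29.6 in KKAy and 50.7 to 56.7 in C57BL/6J at 11 weeks, and 46.3 to 54.5 in KKAy and 127.5 to 156.1 in C57BL/6J at 4 weeks. Of them 4 were lower in KKAy at 11 weeks and 7 at 4 weeks, where 11.5% and 9% of all genes were lower. Cholangiocyte markers, 5 of 7 measured, summed to 6.52 to 8.56 in KKAy and 5.94 to 7.13 in C57BL/6J at 11 weeks, and to 6.80 to 8.43 in KKAy and 8.87 to 10.9 in C57BL/6J at 4 weeks. Among them Sox9 was lower in KKAy by -1.36 at 11 weeks and by -0.63 at 4 weeks, and the other 4 measured did not pass. Ileum and gallbladder markers (2 of 4 measured) summed to 1.23 to 1.98 in KKAy and 0.99 to 1.33 in C57BL/6J at 11 weeks, and to 0.94 to 1.29 in KKAy and 0.32 to 0.44 in C57BL/6J at 4 weeks. Slc10a2 was 3.07-fold higher in KKAy at 4 weeks, where 6.41% of all genes were higher, and did not pass at 11 weeks (0.45). Muc5b, the other one measured, lay slightly below 0 and passed at neither age (-0.16 at 11 weeks and -0.09 at 4 weeks). Erythroid markers (2 of 4) were at 93.3 to 105.3 in KKAy and 56.5 to 60.7 in C57BL/6J at 11 weeks, and lymphocyte markers (5 of 5) at 0.43 to 0.48 in KKAy and 0.59 to 0.61 in C57BL/6J at that age. At 4 weeks the erythroid sums were 162.1 to 181.3 in KKAy and 99.5 to 112.8 in C57BL/6J. The lymphocyte sums were 0.56 to 0.67 and 0.98 to 1.17. Alas2 passed at 11 weeks only and Hba-a1 at 4 weeks only, both higher in KKAy. Of the lymphocyte markers 2 were lower in KKAy at each age. Of 6 stellate markers 3 were lower and 1 higher in KKAy at 11 weeks, and 2 lower at 4 weeks. Of 5 endothelial markers 2 and 1 were lower. The part of these cell types in the results was not tested, and in bulk tissue fewer cells of a type and less RNA per cell cannot be told apart.

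**Figure D1:**
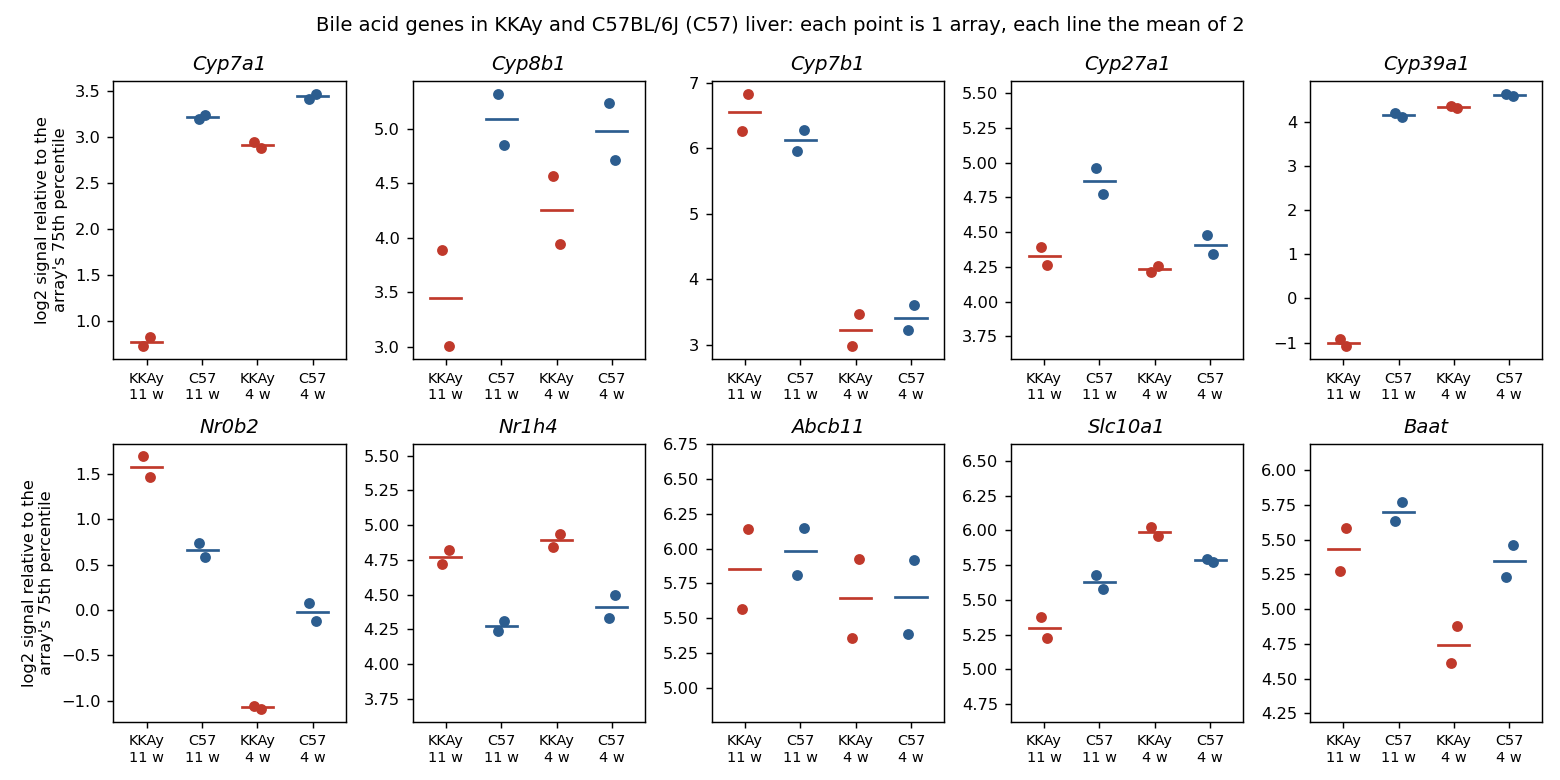
Level of each of the 10 genes on its brightest probe, as log2 signal relative to the 75th percentile of the array (vertical axes, 1 scale per gene), in KKAy (red) and C57BL/6J (blue, "C57") liver at 11 and 4 weeks. Each point is 1 array and each line the mean of 2, and Cyp7a1 and Cyp39a1 stand far lower in KKAy at 11 weeks than in any other group.

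At 11 weeks KKAy livers had less transcript of Cyp7a1, Cyp8b1, Cyp27a1 and Cyp39a1, and more of the repressor Nr0b2 and its inducer Nr1h4. The calls of Cyp8b1, Cyp27a1 and Nr1h4 were lost under several alternatives, as given below. Of the 10 genes 4 were lower and 2 higher in KKAy (6 in all), where 11.5% of all genes tested were lower, 9.95% higher and 21.5% either. The median change of the 10 was -0.30, against -0.001 for all genes, and 8 of the 10 had no overlap between the strains' arrays, which was true of 57.2% of all genes.

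Cyp7a1, on chromosome 4 at 6193456 to 6193515 (mm8, the build of the array annotation, which names no exon or UTR), had levels of 0.73 and 0.83 in KKAy and 3.19 and 3.24 in C57BL/6J at 11 weeks. Both KKAy arrays lay far below both C57BL/6J arrays. The change was -2.44 (SE 0.10, adjusted p = 0.000108), or 5.42-fold lower in KKAy. Its other probe, from 6195632 to 6196238 on the same chromosome, gave -2.24. The call held in all 19 alternatives, with adjusted p = 3.88e-05 to 0.00383.

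Cyp8b1, the 12-alpha-hydroxylase that sets the share of cholic acid (chromosome 9, 121764175 to 121764234), had levels of 3.89 and 3.01 in KKAy and 5.32 and 4.85 in C57BL/6J. The strains did not overlap, but the arrays of each strain lay well apart, with replicate 1 above replicate 2 in both. The same order held in both strains at 4 weeks. The change at 11 weeks was -1.64 (SE 0.38, adjusted p = 0.0312), a 3.12-fold difference. Of the arrays of this age, leaving out replicate 1 of C57BL/6J ended the call (adjusted p = 0.170), as did leaving out its replicate 2 (adjusted p = 0.0875) or replicate 2 of KKAy (adjusted p = 0.110). The call held in 12 of 18 alternatives (adjusted p = 0.000452 to 0.170), and quantile normalization also ended it.

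In the alternative routes the genes did not move together. Cyp39a1 (chromosome 17, 43213479 to 43213538) had levels of -0.91 and -1.09 in KKAy and 4.19 and 4.10 in C57BL/6J, and was lower by -5.15 (SE 0.11, adjusted p = 2.11e-05), which is 35.5-fold. This was the widest gap among the 10 genes in this comparison, and the other probe, at 43213111 to 43213170, gave -5.12. Even so, both Cyp39a1 probes stayed well above background in KKAy. Cyp27a1 (chromosome 1, 74668836 to 74668895), the mitochondrial side chain hydroxylase, had levels of 4.39 and 4.26 in KKAy and 4.96 and 4.78 in C57BL/6J, and was lower by -0.54 (SE 0.12, adjusted p = 0.0248). That call held without either C57BL/6J array at 4 weeks and was lost without any 1 of the other 6 arrays (adjusted p = 0.0516 to 0.165). It held in 8 of 18 alternatives (adjusted p = 0.00298 to 0.225), and was also lost with quantile normalization and with spike-in scaling. Cyp7b1, the oxysterol 7-alpha-hydroxylase (chromosome 3, 18264437 to 18264496), had levels of 6.27 and 6.84 in KKAy and 5.96 and 6.28 in C57BL/6J. These overlapped, and the change of 0.43 did not pass (SE 0.28, 95% interval -0.25 to 1.11, adjusted p = 0.346). With the replicate number as a block, Cyp7b1 passed.

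Both regulators were higher in KKAy at this age. Nr0b2, which encodes SHP (chromosome 4, 132825855 to 132825914), had levels of 1.69 and 1.46 in KKAy and 0.74 and 0.59 in C57BL/6J. It was higher by 0.91 (SE 0.13, adjusted p = 0.00624), or 1.88-fold, with no overlap. Leaving out replicate 2 of C57BL/6J at this age ended the call (adjusted p = 0.0553), which held in the other 17 alternatives. Nr1h4, which encodes FXR (chromosome 10, 88884353 to 88884412), had levels of 4.72 and 4.82 in KKAy and 4.24 and 4.31 in C57BL/6J, and was higher by 0.50 (SE 0.11, adjusted p = 0.0269). Left out singly, either C57BL/6J array at 4 weeks kept the Nr1h4 call and the other 6 arrays each ended it (adjusted p = 0.0531 to 0.167).

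Genes of export, uptake and conjugation did not pass at 11 weeks in the main fit. With the replicate number as a block, Slc10a1 and Baat passed. Abcb11 (chromosome 2, 69039172 to 69039231) had levels of 5.56 and 6.14 in KKAy and 5.81 and 6.15 in C57BL/6J, which overlapped. Its change was -0.13 (SE 0.31, adjusted p = 0.826), with a 95% interval of -0.90 to 0.64 that leaves room for a difference in either direction. Slc10a1 (chromosome 12, 81879331 to 81879390) had levels of 5.38 and 5.22 in KKAy and 5.68 and 5.58 in C57BL/6J, with a change of -0.33 (SE 0.11, 95% interval -0.59 to -0.07, adjusted p = 0.0792). Baat (chromosome 4, where the annotation places the probe at 49510573 to 49510584) had levels of 5.28 and 5.58 in KKAy and 5.64 and 5.77 in C57BL/6J. The strains' arrays did not overlap for Slc10a1 or Baat, but the Baat change of -0.27 did not pass (SE 0.17, 95% interval -0.68 to 0.14, adjusted p = 0.319), and its other probe gave -0.34.

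**Figure D2:**
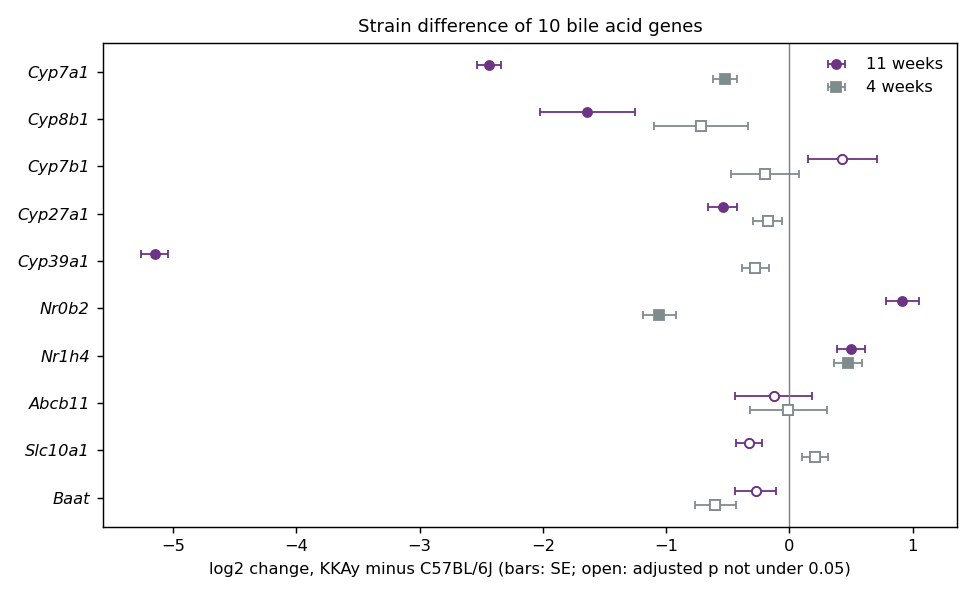
Strain difference of the 10 genes, as log2 change of KKAy minus C57BL/6J (horizontal axis) at 11 weeks (circles) and 4 weeks (squares), with SE bars from 2 arrays per group. Filled symbols passed an adjusted p of 0.05. Cyp39a1 stands at -5.15 at 11 weeks and -0.28 at 4 weeks, and Nr0b2 lies on opposite sides of 0 at the 2 ages.

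At 4 weeks fewer of these genes were called, and Nr0b2 stood the other way. Of the 10 genes 2 were lower in KKAy (Cyp7a1 and Nr0b2) and 1 was higher (Nr1h4), where 9% of all genes were lower, 6.41% higher and 15.4% either. The median of the 10 was -0.24, against 0.02 for all genes, and 8 of 10 had no overlap between strains, as did 48.6% of all genes. Nr0b2 had levels of -1.06 and -1.09 in KKAy and 0.08 and -0.12 in C57BL/6J, and was lower by -1.05 (SE 0.13, adjusted p = 0.00458), or 2.08-fold. Cyp7a1 had levels of 2.94 and 2.88 in KKAy and 3.41 and 3.47 in C57BL/6J and was lower by -0.52 (SE 0.10, adjusted p = 0.0180). Its other probe gave -0.63, which did not pass. Nr1h4 had levels of 4.85 and 4.93 in KKAy and 4.33 and 4.50 in C57BL/6J and was higher by 0.47 (SE 0.11, adjusted p = 0.0390). In none of these genes did the strains overlap. With spike-in scaling the Cyp7a1 change was -0.18 (adjusted p = 0.462). Its call held in 9 of 19 alternatives (adjusted p = 0.00233 to 0.462) and was lost without any 1 of the 4 arrays of this age or of the C57BL/6J arrays at 11 weeks (adjusted p = 0.0559 to 0.111). The Nr1h4 call was lost without any 1 of the 8 arrays (adjusted p = 0.0581 to 0.200), while that of Nr0b2 was lost with spike-in scaling alone (adjusted p = 0.0521).

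The other 7 genes did not pass at 4 weeks in the main fit. With the replicate number as a block, Baat, Cyp39a1, Cyp8b1 and Slc10a1 passed. Cyp8b1 had levels of 4.57 and 3.95 in KKAy and 5.23 and 4.71 in C57BL/6J, with a change of -0.72 and a 95% interval of -1.66 to 0.22 (adjusted p = 0.314). Cyp39a1, with 4.35 and 4.31 in KKAy and 4.64 and 4.58 in C57BL/6J, differed by -0.28 (SE 0.11, adjusted p = 0.166). Neither gene overlapped between the strains. Baat had levels of 4.61 and 4.88 in KKAy and 5.23 and 5.46 in C57BL/6J, a change of -0.60 (SE 0.17, adjusted p = 0.0668), and -0.70 on its other probe. Changes of the remaining 4 genes lay between -0.20 for Cyp7b1 and 0.21 for Slc10a1, with Cyp27a1 at -0.17 and Abcb11 at -0.01. Scaling to the spike-in controls in place of the 75th percentile moved the median of all genes to 0.36 at 4 weeks and 0.13 at 11 weeks. Read on that scale, Cyp7b1, Cyp27a1, Cyp39a1 and Abcb11 lay above 0 at 4 weeks, at 0.07 to 0.34, none of them past the threshold.

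Between 4 and 11 weeks in KKAy, Cyp39a1 and Cyp7a1 fell, while Cyp7b1 and Nr0b2 rose. In the age comparisons of both strains, slide and age cannot be told apart. In all 3 genes rose, 3 fell and 4 did not pass, where 7.89% of all genes rose, 10.7% fell and 18.6% did either, and 9 of the 10 had no overlap between the ages, as did 51.7% of all genes. Cyp39a1 fell by 5.33 (SE 0.11, adjusted p = 2.46e-05), a 40.2-fold drop from its 4-week level, and Cyp7a1 fell by 2.14 (SE 0.10, adjusted p = 0.000220). Cyp7b1, with 6.27 and 6.84 at 11 weeks and 2.98 and 3.46 at 4 weeks, rose by 3.33 (SE 0.28, adjusted p = 0.00136), or 10.1-fold. Nr0b2 rose by 2.65 (SE 0.13, adjusted p = 0.000277), or 6.29-fold. The calls of these 4 genes held in all the alternatives run, 19 for Cyp39a1 and Cyp7a1 and 18 for the others. Slc10a1, with 5.38 and 5.22 at 11 weeks and 6.02 and 5.96 at 4 weeks, fell by 0.69 (SE 0.11, adjusted p = 0.00918), a call that ended on leaving out either KKAy array of 4 weeks (adjusted p = 0.0614 and 0.0511). Baat rose by 0.68 (SE 0.17, adjusted p = 0.0394), a call lost without any 1 of the 8 arrays (adjusted p = 0.0544 to 0.173). Cyp8b1 stood at -0.81, with a 95% interval of -1.75 to 0.13 (adjusted p = 0.211).

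In C57BL/6J Cyp7b1 and Nr0b2 were higher at 11 than at 4 weeks, and the other 8 genes did not pass in the main fit. Over all genes 1.89% rose, 6.48% fell and 8.38% did either. Of the 10 genes 8 had no overlap between the ages, as did 49.2% of all genes. Cyp7b1 had levels of 5.96 and 6.28 at 11 weeks and 3.22 and 3.61 at 4 weeks, and rose by 2.71 (SE 0.28, adjusted p = 0.00385), or 6.53-fold. The ages were far apart in both strains for this gene, and the call held in all 18 alternatives. Nr0b2, with 0.74 and 0.59 at 11 weeks and 0.08 and -0.12 at 4 weeks, rose by 0.68 (SE 0.13, adjusted p = 0.0342). Without any 1 of the arrays other than those of KKAy at 11 weeks that call was lost (adjusted p = 0.0721 to 0.226). Cyp7a1 differed by -0.22 (95% interval -0.46 to 0.02, adjusted p = 0.278), Cyp39a1 by -0.46 (adjusted p = 0.0598) and Cyp27a1 by 0.46 (adjusted p = 0.0779). The age comparisons share arrays with the strain comparisons, and the values are given side by side for that reason.

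**Figure D3:**
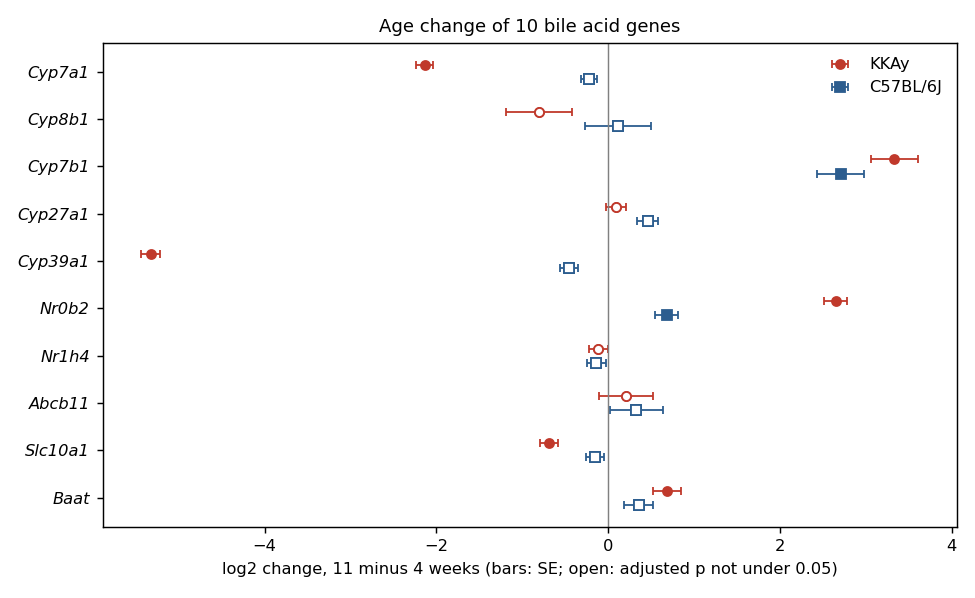
Age change of the 10 genes, as log2 change of 11 minus 4 weeks (horizontal axis) in KKAy (circles) and C57BL/6J (squares), with SE bars from 2 arrays per group and filled symbols where the adjusted p was under 0.05. Cyp7b1 lies at 3.33 in KKAy and 2.71 in C57BL/6J, whereas Cyp39a1 lies at -5.33 in KKAy and -0.46 in C57BL/6J.

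Whether the strain difference itself differed between the ages was tested as an interaction, the change at 11 weeks minus the change at 4 weeks. It passed for 3 of the 10 genes, where 2.06% of all genes passed above 0, 1.75% below 0 and 3.81% in all: Cyp39a1 at -4.87 (SE 0.15, adjusted p = 0.000572), Cyp7a1 at -1.91 (SE 0.14, adjusted p = 0.00367) and Nr0b2 at 1.97 (SE 0.19, adjusted p = 0.00787). The Nr0b2 interaction was lost on leaving out either C57BL/6J array of 11 weeks (adjusted p = 0.0548 and 0.0627), and that of Cyp7a1 on its other probe (-1.61, adjusted p = 0.0694). Slc10a1 stood at -0.54 (adjusted p = 0.128) and Cyp8b1 at -0.92 with a 95% interval of -2.25 to 0.41 (adjusted p = 0.487). Nr1h4 stood at 0.02 (95% interval -0.36 to 0.41, adjusted p = 0.975), with strain differences of 0.50 at 11 weeks and 0.47 at 4 weeks.

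Set side by side with Nr0b2 and Nr1h4, the genes of the classic and alternative routes did not split by route in their order over the groups. Nr0b2 was highest in KKAy at 11 weeks, followed by C57BL/6J of the same age, then C57BL/6J and lastly KKAy of 4 weeks, and no neighbours in that order overlapped. Cyp7a1 was highest in C57BL/6J at 4 weeks, followed by C57BL/6J of 11 weeks, then the younger and lastly the older KKAy livers, again without overlap, although the change between the C57BL/6J groups (-0.22) did not pass and C57BL/6J at 11 weeks was not tested against KKAy at 4 weeks. In KKAy at 11 weeks Nr0b2 was thus at its highest and Cyp7a1 at its lowest, while in KKAy at 4 weeks Nr0b2 was at its lowest and Cyp7a1 was also below C57BL/6J. Nr1h4 was higher in KKAy at both ages and changed little with age in either strain (-0.12 in KKAy and -0.14 in C57BL/6J, neither past the threshold). Cyp39a1, of an alternative route, had the same extremes as Cyp7a1, with levels of -0.91 and -1.09 in KKAy at 11 weeks and 4.64 and 4.58 in C57BL/6J at 4 weeks. Cyp8b1 and Cyp27a1 both had their highest mean in C57BL/6J at 11 weeks (5.09 and 4.87), and their lowest in KKAy, at 11 weeks for Cyp8b1 (3.45) and at 4 weeks for Cyp27a1 (4.23). In the main fit neither gene passed for age in either strain. The Cyp8b1 age change in C57BL/6J was 0.11, with overlap, and that of Cyp27a1 in KKAy was 0.09. Both of these changed sign under some alternatives, so the order of those groups is not settled. Cyp7b1 split the groups by age, and so equally by slide, with both 11-week groups above both 4-week groups. The log2 ratio of Cyp7b1 to Cyp7a1 within an array, set to a mean of 0 in C57BL/6J at 4 weeks, was 5.56 and 6.03 in KKAy and 2.79 and 3.07 in C57BL/6J at 11 weeks, with 0.05 and 0.60 in KKAy and -0.16 and 0.16 in C57BL/6J at 4 weeks. On the same scale the ratio of Nr0b2 to Cyp7a1 was 4.42 and 4.09 in KKAy and 1.01 and 0.81 in C57BL/6J at 11 weeks, with -0.54 and -0.52 in KKAy and 0.13 and -0.13 in C57BL/6J at 4 weeks. The ratio of Cyp7b1 to Cyp8b1 was 3.94 and 5.39 in KKAy and 2.20 and 2.99 in C57BL/6J at 11 weeks, with -0.03 and 1.08 in KKAy and -0.45 and 0.45 in C57BL/6J at 4 weeks. Strains did not overlap at 11 weeks in any of the 3 ratios. The ratio of Cyp27a1 to Cyp7a1 was 2.69 and 2.47 in KKAy and 0.79 and 0.57 in C57BL/6J at 11 weeks, with 0.30 and 0.40 in KKAy and 0.10 and -0.10 in C57BL/6J at 4 weeks, and that of Nr0b2 to Nr1h4 was 1.40 and 1.07 in KKAy and 0.94 and 0.71 in C57BL/6J at 11 weeks, with -1.47 and -1.59 in KKAy and 0.19 and -0.19 in C57BL/6J at 4 weeks. All these ratios are given as a description without a test.

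**Figure D4:**
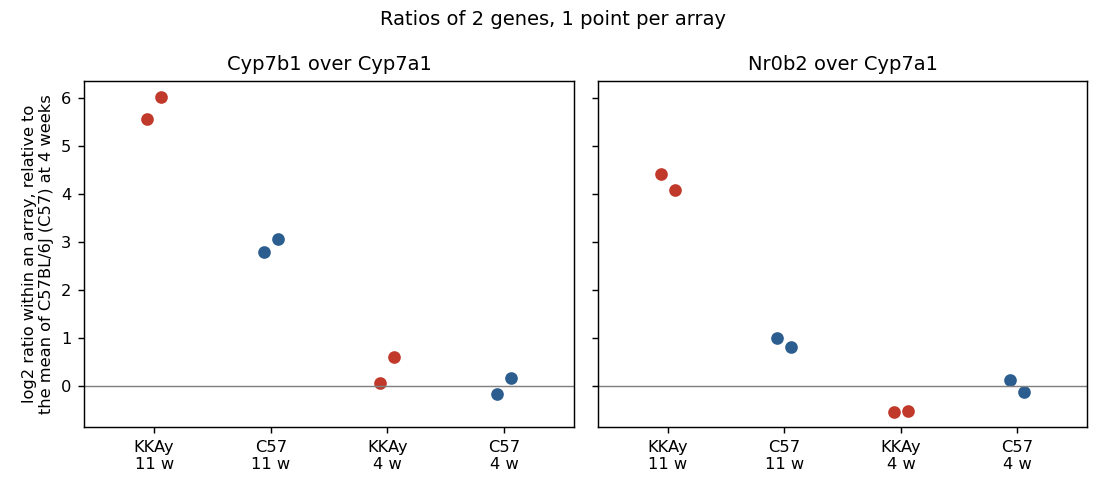
Log2 ratio of Cyp7b1 to Cyp7a1 (left) and of Nr0b2 to Cyp7a1 (right) within each array, relative to the mean of C57BL/6J at 4 weeks, for KKAy (red) and C57BL/6J (blue) at 11 and 4 weeks. Each point is 1 array. Both ratios are highest in KKAy at 11 weeks, at 5.56 and 6.03 for Cyp7b1 and at 4.42 and 4.09 for Nr0b2.

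Other enzymes of the pathway showed no common direction. Of 18 listed genes, all measured, 5 were higher and 2 lower in KKAy at 11 weeks and 3 higher and 2 lower at 4 weeks, with medians of 0.04 and 0.14 against -0.001 and 0.02 for all genes. The shares over all genes were 9.95% higher and 11.5% lower at 11 weeks, and 6.41% higher and 9% lower at 4 weeks. Cyp46a1, the side chain hydroxylase that makes the sterol CYP39A1 acts on, went the opposite way from Cyp39a1. It had levels of 1.71 and 1.53 in KKAy and -1.70 and -1.66 in C57BL/6J at 11 weeks, and -0.15 and -0.23 in KKAy and -2.49 and -1.96 in C57BL/6J at 4 weeks. It was higher by 3.30 (SE 0.19, adjusted p = 0.000262) at 11 weeks and by 2.03 (SE 0.19, adjusted p = 0.00160) at 4 weeks. At 11 weeks Cyp51, a demethylase of cholesterol synthesis, was higher by 0.96 (adjusted p = 0.00541), Akr1c6, a hydroxysteroid dehydrogenase with close paralogs, by 1.41 (adjusted p = 0.0162) and Cyp2a12, a hydroxylase of bile acids in the mouse, by 0.52 (adjusted p = 0.0159). At 4 weeks Acox2, the peroxisomal oxidase of the bile acid side chain, was higher by 0.70 (adjusted p = 0.00572) and Acot8, a peroxisomal thioesterase, by 0.77 (adjusted p = 0.0365). Slc27a5, the bile acid CoA ligase that acts before BAAT, was lower by -0.56 at 4 weeks (adjusted p = 0.0177). With spike-in scaling Slc27a5 stood at -0.21 at that age (adjusted p = 0.379). Quantile normalization ended the calls of Slc27a5 (adjusted p = 0.0990) and Acox2 (adjusted p = 0.0508) at 4 weeks and of Cyp2a12 at 11 weeks (adjusted p = 0.0891).

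Among 14 other transporters 13 were measured. At 11 weeks 4 were higher and 1 lower in KKAy and at 4 weeks 3 were higher and 1 lower, with medians of 0.63 and 0.49 against -0.001 and 0.02 for all genes. Over all genes 9.95% were higher and 11.5% lower at 11 weeks, and 6.41% higher and 9% lower at 4 weeks. Slco1a4, a carrier that takes organic anions into hepatocytes, had levels of -0.05 and -0.67 in KKAy and 3.01 and 2.69 in C57BL/6J at 11 weeks, and was lower by -3.21 (SE 0.30, adjusted p = 0.00135). At 4 weeks it was lower by -1.64 (SE 0.30, adjusted p = 0.0180). Abcc4, which exports bile acids across the sinusoidal membrane, was higher by 1.79 at 11 weeks (SE 0.23, adjusted p = 0.00408) and by 1.49 at 4 weeks (SE 0.23, adjusted p = 0.00947), and its next probe passed at 11 weeks (adjusted p = 0.0377) but not at 4 weeks (0.85, adjusted p = 0.105). Slco1a1 was higher by 1.73 at 11 weeks (adjusted p = 0.000204) and by 0.63 at 4 weeks (adjusted p = 0.00718), but its next probe gave 0.68 at 11 weeks and -0.03 at 4 weeks and passed at neither age. Slco1b2 was higher by 0.99 at 11 weeks (adjusted p = 0.0153), and Abcb1a, a multidrug pump, was 2.83-fold higher at 4 weeks (adjusted p = 0.00759), with a log2 change of 0.79 under normexp (adjusted p = 0.0289). Carriers of the Slco1a and Slco1b groups have close paralogs, so a probe may not read 1 gene alone.

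Of 18 other regulators and signals 15 were measured, with 3 higher and 1 lower in KKAy at 11 weeks and 2 higher and 3 lower at 4 weeks, and medians of -0.03 and 0.04 against the same medians of all genes. For comparison, 9.95% of all genes were higher and 11.5% lower at 11 weeks, and 6.41% and 9% at 4 weeks. Nr5a2, which encodes LRH-1, the activator of Cyp7a1 and Cyp8b1 on which SHP acts, had levels of 3.33 and 4.19 in KKAy and 1.70 and 1.94 in C57BL/6J at 11 weeks, and 3.24 and 3.91 in KKAy and 1.41 and 1.72 in C57BL/6J at 4 weeks. It was higher by 1.94 (SE 0.35, adjusted p = 0.0129) at 11 weeks and by 2.01 (SE 0.35, adjusted p = 0.0142) at 4 weeks, without overlap. Fgfr4, the hepatocyte receptor for the gut hormone FGF15, was higher by 0.78 at 11 weeks (SE 0.10, adjusted p = 0.00449). Klb, its co-receptor, was lower by -0.52 at 4 weeks (adjusted p = 0.0145) and stood at -0.01 at 11 weeks on its brightest probe, where its next probe gave -1.43 (adjusted p = 0.00175). Nr1h3, the oxysterol receptor LXR alpha, was lower by -0.60 at 11 weeks (adjusted p = 0.00831) and by -0.64 at 4 weeks (adjusted p = 0.00814). With spike-in scaling the Klb call at 4 weeks did not hold (-0.17, adjusted p = 0.477), and neither Nr1h3 call held (-0.47 with adjusted p = 0.133 at 11 weeks and -0.29 with adjusted p = 0.265 at 4 weeks). Nr1i3, the xenobiotic receptor CAR, was higher by 0.41 at 11 weeks (adjusted p = 0.0293) and by 0.65 at 4 weeks (adjusted p = 0.00707), and at 11 weeks its call was lost with normexp (0.37, adjusted p = 0.0689), quantile normalization (0.30, adjusted p = 0.191) and spike-in scaling (0.54, adjusted p = 0.0861).

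**Figure D5:**
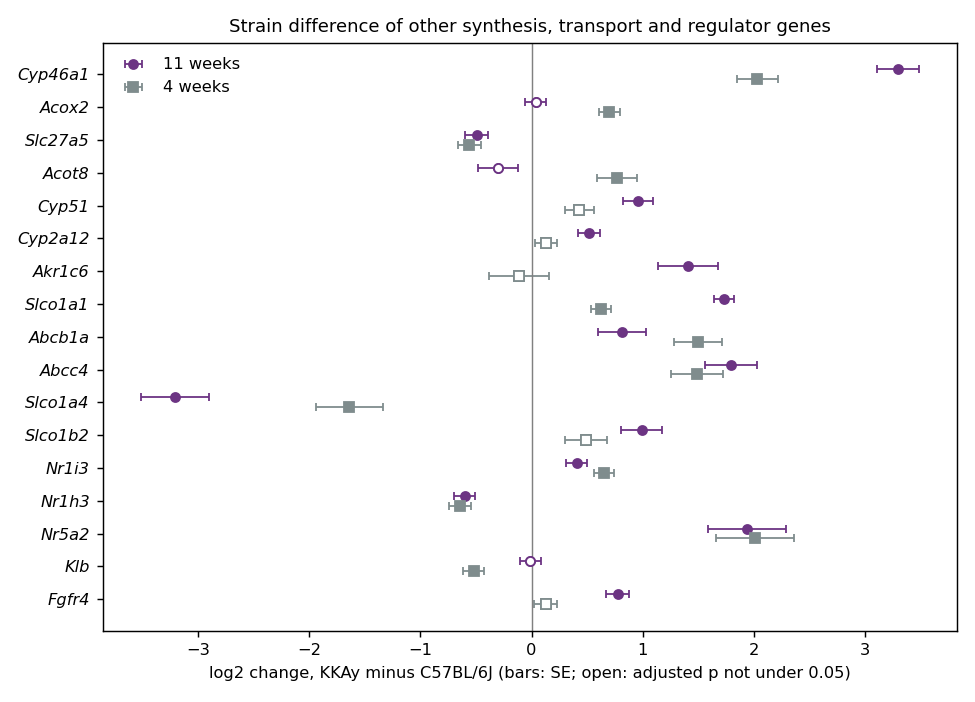
Strain difference of 17 other synthesis, transport and regulator genes named by rule, as log2 change of KKAy minus C57BL/6J (horizontal axis) at 11 weeks (circles) and 4 weeks (squares), with SE bars from 2 arrays per group and filled symbols where the adjusted p was under 0.05. Cyp46a1 stands at 3.30 and Slco1a4 at -3.21 at 11 weeks.

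Genes whose levels tracked those of the members most closely over the 8 arrays were read off by Pearson r among 12798 named genes that were well above background on every array. The 3 closest to Cyp7a1 were Psmd9, Got1 and Iws1 (r = 0.997 to 0.994), and those closest to Cyp39a1 were Pnpla2, Myom1 and 1810010H24Rik (0.998 to 0.996). Nr0b2 was tracked by Paqr9, Fitm1 and Clp1 (0.993 to 0.991), Cyp7b1 by Plekhm1, Kif1b and Susd4 (0.991 to 0.990) and Cyp8b1 by Rbmx, Baiap2l1 and Slc25a15 (0.994 each). For Slc10a1 the closest were Il1rn, Cox10 and Slc43a1 (0.997 to 0.990), for Nr1h4 Ldhb, Ccdc68 and Tmem50a (0.995 to 0.994), for Baat Klhl2, H2bc14 and H2bc12 (0.997 to 0.994), for Abcb11 Ino80e, Mrpl18 and Trappc9 (0.994 to 0.991) and for Cyp27a1 Nup62, Elf1 and Atxn10 (0.976 to 0.969). With 8 arrays in 4 groups on shared slides, such values describe a likeness of level and nothing more.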

How the data were processed

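RNA from KKAy and C57BL/6J liver was measured on 8 one-colour Cy3 arrays, 2 per strain and age, and groups and replicate numbers came from the labels. The authors read spot intensity with Feature Extraction 9.5.1.1 of Agilent; background and spatial trends were removed there and dim spots received surrogate values, per the file headers, and arrays were not normalized to each other. The deposited value table holds log2 values that equal log2 processed signal minus 1 constant per array (within 0.001 for 99.55% of values), with column medians of -3.96 to -3.67. It had 0 columns of no sample, and what tool made it is not stated in the labels or headers.

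Control spots and outlier spots (59 to 89 per array) were left out, repeated spots averaged, and log2 signal was expressed over the 75th percentile of the array. A probe was kept (25320 were) if both arrays of 1 or more groups had it well above background, and the brightest stood for its gene (17050 genes). Names came from the RefSeq table of GRCm38.p6 by accession (24375 probes), symbol (6301) or older symbol (2426), and 8072 probes kept the file's name. One limma model (version 3.58.1, R 4.3.3) with a mean per group took all 8 arrays, with 4 residual and 1.926 prior degrees of freedom. P-values were adjusted by Benjamini-Hochberg at 0.05. A gene with a missing value in a comparison was left out of it. The procedure was tested on simulated data with noise drawn independently for each array. That simulation left out the correlation of replicate differences between groups, so it says nothing on how this affects the calls. Probes carry positions on mm8, and promoters positions on GRCm38.p6.

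The members, lists and tests were chosen with earlier results of these data known. All 10 members are named, and from each of the 3 lists of other pathway genes the 4 with the smallest adjusted p among those called, per strain comparison. Alternatives changed background correction (normexp, offset 50), normalization (quantile, spike-in), the source of values, the filter, the probe, the moderation, the arrays in the fit and the replicate block. Python 3.11.15, pandas 2.3.3, numpy 2.4.6 and matplotlib 3.10.9 prepared tables and figures.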

Additional observations from a re-analysis of the deposited data

Results flagged for a closer look

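For 3 genes the strain difference changed with age by the interaction test of limma. Cyp39a1 had an interaction of -4.87 on the log2 scale, from -5.15 at 11 weeks and -0.28 at 4 weeks, and both of its probes showed it. Cyp7a1 had -1.91, from -2.44 at 11 weeks and -0.52 at 4 weeks. Nr0b2 had 1.97 and is the member whose strain difference passed in opposite directions, at 0.91 at 11 weeks and -1.05 at 4 weeks. Each strain difference lies within 1 slide. As each age had a slide to itself, an effect of slide and an effect of age on the strain difference cannot be told apart in these values.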

How the results depend on the processing

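The number of the 10 genes called changed with the following settings. At 4 weeks, against 3 called, it was 1 with spike-in scaling, with no filter on dim probes, on the next probe (3 genes measured) and with only the 4 arrays compared, and 1 to 2 on leaving out each array. It was 4 with normexp, with quantile normalization and with the mean of all probes, where Baat was gained. At 11 weeks, against 6, it was 3 with no filter and 3 with only the 4 arrays compared. It was 5 with spike-in scaling (Cyp27a1 lost) and 5 with quantile normalization (Cyp27a1 and Cyp8b1 lost, Baat gained). Leaving out each array gave 2 to 6. On the next probe it was 2, with 3 genes measured and no call among them lost. For age in KKAy, against 6, it was 5 with spike-in scaling and with no filter, and 4 with only the 4 arrays compared. Leaving out each array gave 4 to 5. Baat was lost in every one of these settings, and Slc10a1 in some. On the next probe the count was 3, where all 3 genes measured passed. For age in C57BL/6J, against 2, it was 1 with normexp, with spike-in scaling, with no filter and with only the 4 arrays compared. It was 1 to 2 on leaving out each array. The next probe gave 0, but Cyp7b1 and Nr0b2 have no other probe, so neither call could be checked there. The interaction, against 3, gave 1 on the next probe, where 3 genes were measured and the Cyp7a1 call was lost. It gave 2 on leaving out either C57BL/6J array of 11 weeks, where the Nr0b2 call was lost. With the replicate number as a block (the pairing fit) the counts were 7 at 4 weeks (Baat, Cyp39a1, Cyp8b1 and Slc10a1 gained), 9 at 11 weeks (Baat, Cyp7b1 and Slc10a1), 7 for age in KKAy (Cyp8b1), 7 for age in C57BL/6J (Abcb11, Baat, Cyp27a1, Cyp39a1 and Cyp7a1) and 8 for the interaction (Baat, Cyp27a1, Cyp7b1, Cyp8b1 and Slc10a1), with none lost. The labels do not say that a number marks a shared animal or day, there are only 2 numbers, and the difference of replicate 1 and 2 correlated at 0.53 to 0.676 between the groups over genes, as a hint from the data. Over all genes the block gave 7474 calls at 4 weeks (against 2626), 9368 at 11 weeks (3660), 9100 for age in KKAy (3176), 5771 for age in C57BL/6J (1428) and 5288 for the interaction (650). Without the filter these counts were 1505, 2126, 1463, 700 and 142 in the same order, of 27595 or 27596 genes tested. On the next probe they were 852, 1315, 976, 352 and 132, of 5910 genes tested. The main fit tested 17048 or 17049 genes, so these counts cannot be set directly against the main ones. With only the 4 arrays compared they were 1404 at 4 weeks, 2120 at 11 weeks and 742 for age in KKAy. With normexp they were 2350 at 11 weeks, 1884 for age in KKAy, 662 for age in C57BL/6J and 323 for the interaction. Spike-in scaling turned the split of higher and lower calls to 2340 and 746 at 4 weeks (main 1092 and 1534), 1809 and 1171 at 11 weeks (1697 and 1963), 564 and 2332 for age in KKAy (1346 and 1830) and 149 and 265 for the interaction (351 and 299). No slide fit adds a value, since each slide holds 1 age and strain contrasts lie within a slide. Values that changed sign did not pass before or after. With spike-in scaling these were Cyp7b1 (0.15), Cyp27a1 (0.17), Cyp39a1 (0.072) and Abcb11 (0.34) at 4 weeks, Abcb11 (0.0070) at 11 weeks, Cyp27a1 for age in KKAy (-0.11, and -0.045 with quantile normalization) and the Nr1h4 interaction (-0.19, with -0.015 under normexp and -0.061 under quantile normalization). On leaving out each array, Cyp8b1 for age in C57BL/6J ranged from -0.15 to 0.37, Cyp7b1 at 4 weeks from -0.44 to 0.048 and the Nr1h4 interaction from -0.063 to 0.11. Abcb11 ranged from -0.29 to 0.28 at 4 weeks, -0.42 to 0.16 at 11 weeks, -0.081 to 0.50 for age in KKAy and -0.41 to 0.17 for the interaction. Of 905 single values of the genes under alternatives, 782 kept direction and call, 73 lost the call, 23 gained it and 27 changed sign. The cause of these changes was not tested. With 2 arrays per group, the number of arrays limits the precision.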

Other observations

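Some genes of the lists passed without being among those named above, and they were chosen here after their values were seen. At 11 weeks Cyp2c70, the mouse enzyme that makes muricholic acids, was higher in KKAy by 1.06 (SE 0.26, limma adjusted p = 0.0354), and Amacr, a racemase of the bile acid side chain, was lower by -0.65 (SE 0.16, adjusted p = 0.0397). Slc27a5 was also lower at 11 weeks, by -0.50 (SE 0.10, adjusted p = 0.0214). It did not pass at that age with spike-in scaling (-0.36, adjusted p = 0.207) or quantile normalization (-0.54, adjusted p = 0.115). At 4 weeks Ppargc1a, a coactivator induced by fasting, was lower in KKAy by -1.57 (SE 0.31, adjusted p = 0.0230). Ch25h, an oxysterol-making hydroxylase, was lower in KKAy at that age (adjusted p = 0.0450), but its probe was not well above background in KKAy, and the fold is bounded only at 1.04 or more. In KKAy between 4 and 11 weeks Slc51b, a subunit of the basolateral bile acid exporter, fell by 1.78 (SE 0.18, adjusted p = 0.00252), and Fgfr4 rose by 0.76 (SE 0.10, adjusted p = 0.00620). Abcb1a also passed at 11 weeks (0.82, adjusted p = 0.0474), where 1 of 2 arrays in each strain measured it, and with normexp it stood at 0.31 (adjusted p = 0.288).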
